A study of Homo sapiens with 24 samples.

Results

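The BCL2 family decides whether the outer membrane of the mitochondrion is opened, the step that commits a cell to intrinsic apoptosis. The effectors BAX and BAK1 form the pores, the guardians BCL2, BCL2L1 (BCL-XL) and MCL1 hold the effectors in check, and the BH3-only proteins BBC3 (PUMA), PMAIP1 (NOXA), BCL2L11 (BIM), BID and BAD bind the guardians or activate the effectors. Several of these genes are textbook targets of p53, and colorectal tumour cells rely largely on BCL2L1 and MCL1 for survival. These 10 genes were taken by symbol from the count table, and all 10 of the 10 were found among its 33113 genes and had counts in each of the 24 samples.

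Transcripts were counted by RNA sequencing in HCT116 cells, an established human colorectal carcinoma line, and in HCT116 oxpl-R cells, which the study selected from the same line by repeated pulses of oxaliplatin, a platinum drug that crosslinks DNA, and which it describes as hypotetraploid with a karyotype that varies from cell to cell. Both lines carry a TetOn-E1A construct, so every group holds the transgene of the adenoviral E1A protein, which is switched on by doxycycline. Each line was left untreated (control), was given doxycycline at 0.5 µg/mL (E1A), was given 25 µM oxaliplatin for 24 h (oxaliplatin), or was given doxycycline 3 h before oxaliplatin (E1A + oxaliplatin), with 3 samples labelled as biological replicates in each of the 8 groups. No group received doxycycline without carrying the transgene, so doxycycline and E1A cannot be told apart. The labels do not say whether replicates were separate cultures, and p-values measure only the spread between these samples.

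The counts of the table summed to between 24838095 and 37927720 per sample, and values are given below as normalized counts, scaled to the mean effective library size of the 24 samples. The transgene followed the labels. Counts of the Ad5-E1A transgene were 175, 141 and 114 in the HCT116 control samples and 22235, 21659 and 21179 in the HCT116 E1A samples, and no sample without doxycycline had more than 342. They were 161, 222 and 231 in the control samples of HCT116 oxpl-R cells and 21976, 15312 and 26098 in the E1A samples. CDKN1A, the p53 target that stops the cell cycle, rose with oxaliplatin from a mean of 4220 ± 180 to 54941 ± 6570 normalized counts in HCT116 cells (SD, n = 3). HCT116 oxpl-R cells had 16569 ± 1090 without the drug and 121360 ± 17100 with it. MDM2, the ligase of p53 and also its target, rose with oxaliplatin in HCT116 oxpl-R cells (log2FC 2.08, adjusted p = 1.99e-08 by edgeR) but gave no call in HCT116 cells (log2FC 0.46, adjusted p = 0.122). Of the E2F targets E2F1, CCNE1, CCNE2 and MCM5, none was called by edgeR for E1A against control in either line, with a median log2FC of 0.0581 in HCT116 cells and of 0.156 in HCT116 oxpl-R cells, and in both lines 1 (E2F1) had an unadjusted p below 0.05. Under oxaliplatin in HCT116 oxpl-R cells 3 of the 4 rose with E1A, where 1.39% of the genes tested passed. Their log2FC was 2.20 for E2F1, 2.48 for CCNE2 and 1.68 for MCM5 (adjusted p at most 0.000822). In the comparison of oxaliplatin with control, which shares the oxaliplatin samples, 6.11% of the genes passed. There these 3 stood at -2.13, -1.60 and -2.13 (adjusted p at most 0.0164). In HCT116 cells edgeR called none of the 4 in those comparisons, where 0.0874% and 17.4% of the genes passed. Their median log2FC was 0.0774 and -0.109. At an unadjusted p below 0.05 edgeR gave 1 (CCNE2) with E1A under oxaliplatin and 3 (CCNE2, E2F1 and MCM5) with oxaliplatin. Among 7 markers of colorectal epithelium, 5 averaged at least 10 counts, led by KRT8, while LGR5 and CEACAM5 were close to 0. Among 6 markers of blood, stromal and endothelial cells, COL1A1 was the most abundant at 17.9 to 28.6 CPM on average in the groups, COL3A1 had counts of 7, 74 and 35 in the HCT116 oxpl-R E1A samples and at most 36 in any other, and PTPRC, DCN, PECAM1 and CDH5 were close to 0. Of these, PECAM1 was called higher in HCT116 oxpl-R than in HCT116 cells with E1A (log2FC 3.60, adjusted p = 0.0375), on counts of 10, 8 and 13 against 1, 1 and 0. The summed level of the epithelial markers was 5141 to 5903 CPM in the HCT116 control samples and 8859 to 10190 CPM under oxaliplatin, against 6152 to 6524 and 8892 to 12250 CPM in HCT116 oxpl-R samples, and its part in the results was not tested.

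A pair of HCT116 libraries stood apart from the other replicates of their groups in their trend with transcript length. In HCT116 oxaliplatin replicate 3, deviations from the group mean rose by 0.212 on the log2 scale with each doubling of transcript length, and genes under 1500 bases lay 0.337 below their group mean. In HCT116 E1A + oxaliplatin replicate 1 the slope was 0.0921, the short genes lay 0.252 below their group mean, and the Ad5-E1A count was 5687 against 15715 and 14644 in the other replicates. Slopes of opposite sign in the same groups, as in HCT116 oxaliplatin replicates 1 and 2 (-0.119 and -0.0931), follow from the shared group mean. A slope close to 0.0921 in size, at -0.0897, was also found in HCT116 oxpl-R E1A + oxaliplatin replicate 3. Short genes lay 0.134 above their group mean there, and that library was not left out with the pair. By the chi-square of raw counts per gene, the largest disagreement was elsewhere, with HCT116 oxpl-R oxaliplatin replicate 1 at 473 and 631 against replicates 2 and 3, where these HCT116 libraries reached 229 and 243. Results that rest on the pair are given with and without them, and HCT116 oxpl-R oxaliplatin replicate 1 was among the samples left out 1 at a time. That choice was made with the values of PMAIP1 known. In comparisons that hold neither library of the pair, leaving them out keeps the compared samples and changes the spread that all groups share in the fit.

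The promoters of PMAIP1, BBC3 and BAX are shown because these genes are textbook targets of p53 and their transcripts are compared below under a DNA-damaging drug. RefSeq windows of GRCh38.p14, from 250 bases before to 50 bases after each transcript start, matched 9 of the 10 members (all but MCL1) with 15 starts. Each window was searched for the p53 consensus, a pair of 10-base elements with at most 1 base between them and the fixed C and G of each element required; the consensus reads alike on both strands. The stretches below are written 5′ to 3′ on the strand of the gene, with the closest match in capitals.
PMAIP1, chr18:59899791-59899850, plus strand: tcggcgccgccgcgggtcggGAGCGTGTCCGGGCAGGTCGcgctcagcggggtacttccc
BBC3, chr19:47232769-47232829, minus strand: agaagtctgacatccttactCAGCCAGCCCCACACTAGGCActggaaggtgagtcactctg
BAX, chr19:48954749-48954808, plus strand: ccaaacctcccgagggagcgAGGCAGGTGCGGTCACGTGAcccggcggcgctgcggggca
The match in PMAIP1 began 185 bases before the start and had 3 mismatches, and 2.38% of all 35116 windows hold a match with at most 3. It was the closest among the member windows. The match in BBC3 had 5 mismatches and that in BAX had 6, more than in windows counted in that share. A match is a description of the letters, and binding was not measured here.

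In untreated HCT116 cells BCL2L1 had the highest level per length and BCL2 the lowest. Levels are compared between genes as CPM per kilobase of the MANE Select transcript. BCL2L1 stood at 106 ± 11.8, followed by BAD at 74.0 ± 11.8 and BID at 64.2 ± 5.58, whose samples overlapped (SD, n = 3). MCL1 stood at 55.2 ± 2.02, BAX at 46.8 ± 5.69, PMAIP1 at 35.6 ± 3.24 and BAK1 at 30.7 ± 3.46, with overlap only between the last pair of neighbours. BBC3 at 12.6, BCL2L11 at 5.43 and BCL2 at 0.554 closed the order without overlap. In untreated HCT116 oxpl-R cells BAX had moved up beside BCL2L1, at 167 against 188 CPM per kilobase with overlapping samples. Under oxaliplatin in that line BAX had the highest mean at 346, with BCL2L1 at 241 and still overlapping, and under E1A + oxaliplatin BAX at 351 lay above BCL2L1 at 154 without overlap.

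The summed level per length of the effectors, divided by that of the guardians, was higher with oxaliplatin in both lines. The ratio was 0.490, 0.443 and 0.500 in the HCT116 control samples and 0.955, 0.970 and 0.817 in the HCT116 oxaliplatin samples. In HCT116 oxpl-R cells it was 0.665, 0.803 and 0.870 in the control samples and 1.33, 1.37 and 1.08 in the oxaliplatin samples. It was highest under E1A + oxaliplatin in HCT116 oxpl-R cells, at 1.65, 1.66 and 2.46, and it was 1.04, 1.09 and 0.990 in HCT116 cells given both. The control and oxaliplatin samples of each line did not overlap. With E1A alone the ratio was 0.523, 0.534 and 0.627 in HCT116 cells, above the control samples. In HCT116 oxpl-R cells given E1A alone it was 0.87, 0.827 and 1.11, overlapping the control samples. These are ratios of transcripts, given without a test.

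**Figure D1:**
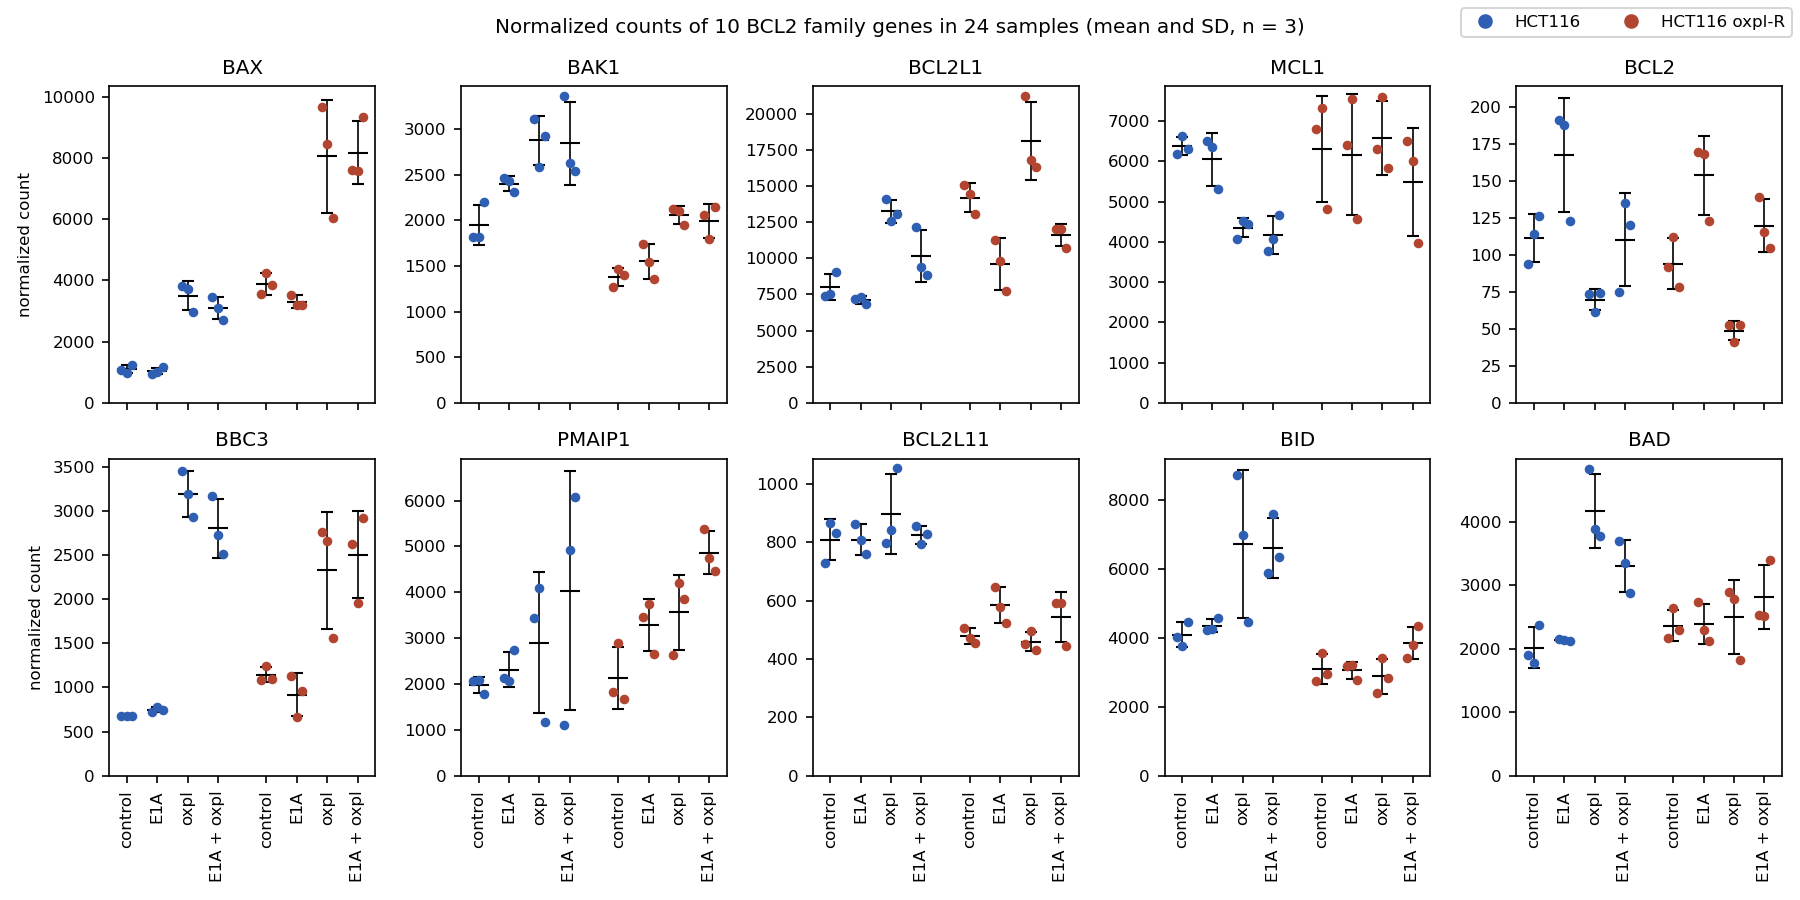
Normalized counts (linear axes from 0) of the 10 genes in the 24 samples, by group ("oxpl" stands for oxaliplatin), as points for samples and bars for the mean and SD (n = 3). BAX and BBC3 were higher in all oxaliplatin groups than in the control group of their line, BAX was higher in every HCT116 oxpl-R group than in the matching HCT116 group, and PMAIP1 fell to 1166 and 1106 in a pair of HCT116 libraries.

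Oxaliplatin was compared with control in each line to ask how the family responded to the drug. In HCT116 cells 6 of the 10 members rose and 1 fell, where 17.4% of the 19452 genes tested passed in either direction and 29.8% of the 11097 genes with at least 10 counts on average passed. The median log2FC of the members was 0.641, against -0.0892 over those 11097 genes. All adjusted p-values are from edgeR's quasi-likelihood test with Benjamini-Hochberg adjustment over all genes tested, log2FC is given ± SE, and a call is an adjusted p below 0.05. The samples are bulk RNA, in which fewer cells with a transcript and less of it per cell cannot be told apart.

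BBC3, which binds all the guardians, had the largest rise of the members in HCT116 cells. It stood at 677, 678 and 678 normalized counts in the control samples and at 3457, 3198 and 2935 in the oxaliplatin samples. The groups lay far apart from each other, with a log2FC of 2.24 ± 0.210 (adjusted p = 1.12e-08). BAX, on chromosome 19 like BBC3 (GRCh38, 48954815 to 48961798 on the plus strand), went from 1073, 965 and 1229 to 3820, 3702 and 2958. The samples did not overlap, and the log2FC was 1.68 ± 0.180 (adjusted p = 1.37e-07). BAD, a BH3-only protein whose binding to BCL2L1 is governed by phosphorylation, went from 1892, 1768 and 2376 to 4832, 3888 and 3778, again without overlap (log2FC 1.05 ± 0.186, adjusted p = 0.000211). These calls held in every alternative run (samples were left out 1 at a time from the groups compared), a fold threshold aside (|log2FC| above 1, which is counted with the limits).

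The other members that rose in HCT116 cells changed less. BCL2L1, the leading guardian by level, went from 7412, 7563 and 9019 to 14119, 12564 and 13047 (log2FC 0.73 ± 0.173, adjusted p = 0.00367), and its call held in those alternatives too. A guardian and pro-death members thus rose in the same comparison. BID, which links death receptors to mitochondria once caspase 8 has cut it, went from 4026, 3766 and 4469 to 8719, 6992 and 4449. Its samples overlapped through oxaliplatin replicate 3 (log2FC 0.72 ± 0.193, adjusted p = 0.00926), and the adjusted p was 0.0572 without control replicate 2 and 0.0611 without oxaliplatin replicate 1. Without both libraries that stood apart, of which that replicate is one, the log2FC of BID was 1.05 (adjusted p = 3.38e-05). BAK1 went from 1817, 1822 and 2200 to 3112, 2592 and 2928 without overlap (log2FC 0.56 ± 0.159, adjusted p = 0.0130). The call of BAK1 was lost without control replicate 1 (adjusted p = 0.0731) or 2 (0.0764).

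MCL1, a guardian with a very short-lived protein, was the member that fell in HCT116 cells. It stood at 6193, 6643 and 6312 in the control samples and at 4084, 4516 and 4454 in the oxaliplatin samples. The groups did not overlap, but the call was at the threshold (log2FC -0.55 ± 0.197, adjusted p = 0.0496) and was lost without any of the 6 libraries, at adjusted p between 0.0741 and 0.285, and without both libraries that stood apart (0.0892). It was also lost under RLE (0.101), DESeq2 (0.0552), filterByExpr (0.0775) and limma (0.0513 and 0.0507 with the pseudocounts). BCL2, which binds BIM and BAX but was scarce here, stood at 94, 114 and 126 and then at 73, 62 and 74 (log2FC -0.68 ± 0.266, adjusted p = 0.0781). BCL2L11, the BH3-only activator BIM, had overlapping samples and a log2FC of 0.15 ± 0.181 (adjusted p = 0.655).

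PMAIP1, the BH3-only partner of MCL1, depended on single libraries. In HCT116 cells it stood at 2072, 2089 and 1769 normalized counts in the control samples and at 3441, 4097 and 1166 in the oxaliplatin samples, with replicate 3 below every control (log2FC 0.55 ± 0.371, adjusted p = 0.359). Under E1A + oxaliplatin it stood at 1106, 4924 and 6078, with replicate 1 below every control (log2FC 1.03 ± 0.374 against control, adjusted p = 0.0609, and between 0.0349 and 0.0441 under RLE, total count scaling and DESeq2). Without both of those libraries the log2FC was 1.03 for oxaliplatin (adjusted p = 0.000413) and 1.503 for E1A + oxaliplatin (7.16e-06). Each held the lowest PMAIP1 value of its group, so leaving it out raised the log2FC by construction. These values are therefore no support for a rise. With 1 sample left out at a time, the former lay between 0.33 (adjusted p = 0.716, without oxaliplatin replicate 2) and 0.98 (0.0327, without replicate 3). The latter lay between 0.66 (adjusted p = 0.281, without E1A + oxaliplatin replicate 3) and 1.503 (0.00149, without replicate 1). Removal of the trend with transcript length, with all libraries kept, left the oxaliplatin value at 0.51 (adjusted p = 0.317) and put the E1A + oxaliplatin value at 0.97 (0.0344). The pair of HCT116 libraries that stood apart had the lowest PMAIP1 counts of the 24. A relation between slope and PMAIP1 count over the 24 libraries was not tested. The part of the length trend in PMAIP1 was not tested beyond that removal.

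**Figure D2:**
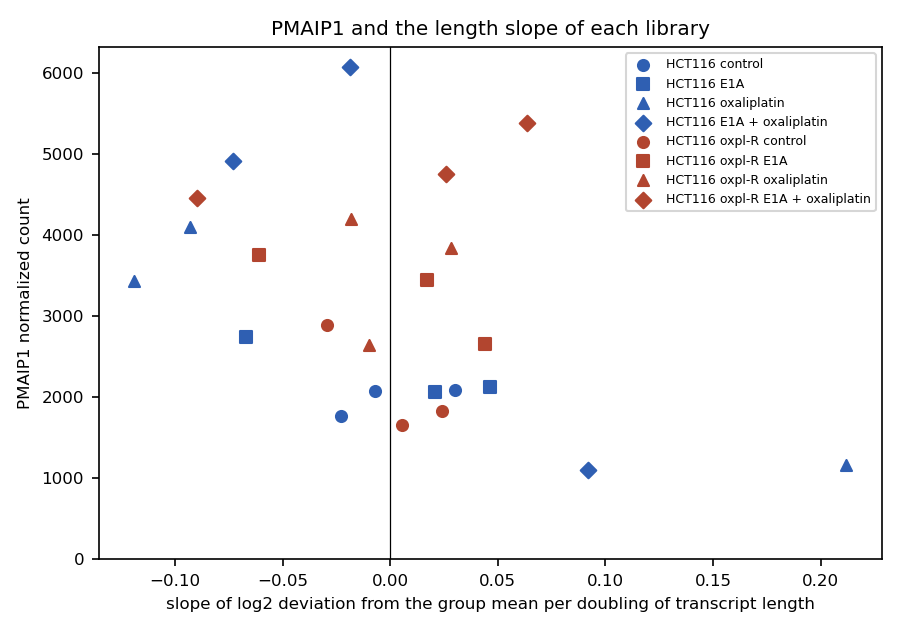
PMAIP1 normalized count (vertical axis, linear from 0) of each of the 24 libraries against the slope of its log2 deviations from the group mean per doubling of transcript length (horizontal axis), with colour for the line (blue for HCT116) and shape for the treatment. The libraries with slopes of 0.212 and 0.0921, both treated with oxaliplatin, had PMAIP1 at 1166 and 1106, the lowest values of all.

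In HCT116 oxpl-R cells 3 of the 10 members rose with oxaliplatin and 1 fell, where 6.11% of the 19452 genes and 10.5% of the 11097 passed. The median log2FC of the members was 0.217. BAX started high and rose further, from 3537, 4236 and 3852 to 9653, 8465 and 6033 (log2FC 1.05 ± 0.176, adjusted p = 0.000111). BBC3 went from 1087, 1240 and 1102 to 2767, 2662 and 1560 (log2FC 1.03 ± 0.203, adjusted p = 0.000987). Neither gene overlapped between the groups, and both calls held in every alternative. BAK1 went from 1275, 1464 and 1403 to 2125, 2102 and 1949 (log2FC 0.58 ± 0.160, adjusted p = 0.0231).

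BCL2 fell in HCT116 oxpl-R cells from 92, 112 and 78 to 52, 41 and 53 normalized counts (log2FC -0.94 ± 0.273, adjusted p = 0.0314). The calls of BAK1 and BCL2 in this line were lost in several alternatives. With all libraries but only the groups compared in the fit, the adjusted p was 0.0912 for BAK1 and 0.120 for BCL2, and for BCL2 it was 0.128 and 0.125 under limma with the pseudocounts. For BAK1 the adjusted p was 0.116, 0.0731 and 0.0787 without control replicate 1, 2 and 3, and 0.0573 and 0.0586 without oxaliplatin replicate 1 and 2. For BCL2 it was 0.0739 and 0.163 without control replicate 1 and 2, and 0.0633 and 0.144 without oxaliplatin replicate 1 and 2. PMAIP1 stood at 1834, 2893 and 1661 and then at 2641, 4199 and 3846, overlapping (log2FC 0.74 ± 0.372, adjusted p = 0.328). With both HCT116 libraries that stood apart left out of the fit, the log2FC of PMAIP1 in HCT116 oxpl-R cells was 0.73 and its adjusted p was 0.0104. That run left out no HCT116 oxpl-R sample, and the spread is shared by all groups, so it adds no evidence on this line.

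The remaining members gave no call with oxaliplatin in HCT116 oxpl-R cells. BCL2L1 had a log2FC of 0.35 ± 0.172 (adjusted p = 0.304), with every oxaliplatin sample above every control sample. BID stood at 2746, 3568 and 2957 and then at 2396, 3421 and 2820, BAD at 2158, 2632 and 2291 and then at 2889, 2780 and 1818, and MCL1 at 6798, 7332 and 4818 and then at 6303, 7612 and 5827. These groups overlapped, and their log2FC were -0.10, 0.08 and 0.06. BCL2L11 had a log2FC of -0.06 ± 0.182.

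**Figure D3:**
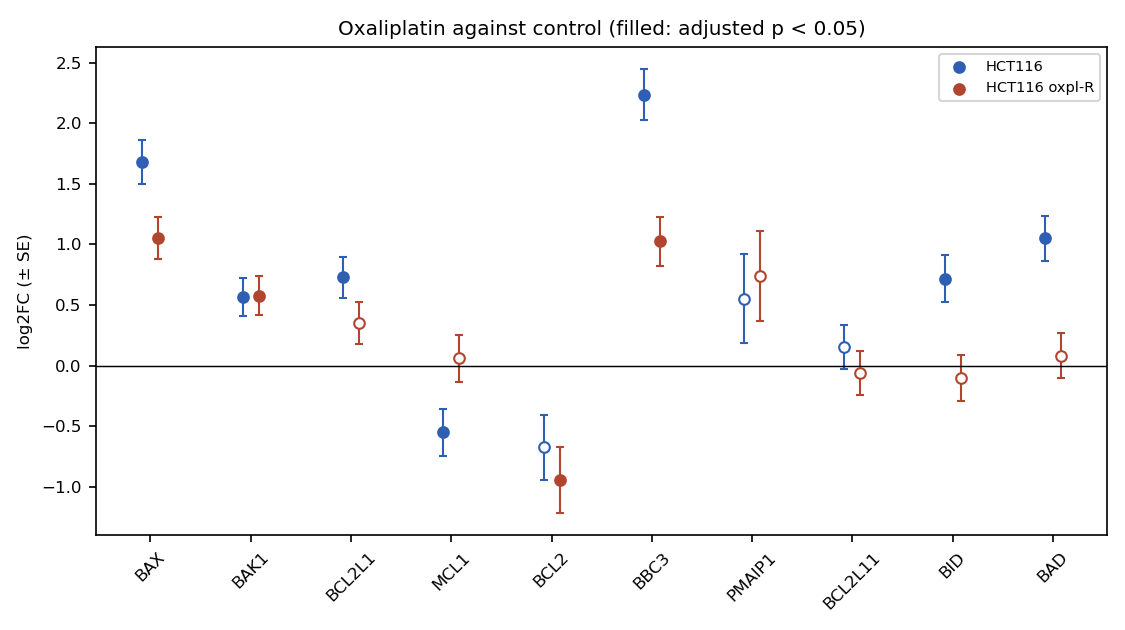
log2FC (± SE) of the 10 genes for oxaliplatin against control in HCT116 (blue) and HCT116 oxpl-R cells (red), with filled points for an adjusted p below 0.05. BBC3 stood at 2.24 and 1.03 and BAX at 1.68 and 1.05 in the respective lines. BAD, BID, BCL2L1 and MCL1 were filled in HCT116 cells only, and BCL2 lay below 0 in both and was filled in HCT116 oxpl-R cells only.

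The response of the lines was compared by the interaction of line and oxaliplatin, in which 2 of the 10 members passed, both lower in HCT116 oxpl-R cells, where 2.78% of the genes and 4.79% of the 11097 passed. The rise of BBC3 was smaller in HCT116 oxpl-R cells by 1.21 on the log2 scale (interaction -1.21 ± 0.286, adjusted p = 0.0160). That of BAD was smaller too (interaction -0.97 ± 0.261, adjusted p = 0.0362). Under total count scaling the adjusted p was 0.0537 for BBC3 and 0.0889 for BAD, and for BAD it was 0.0520 with only the groups compared. The call of BAD was also lost without HCT116 control replicate 1 (adjusted p = 0.111) or 2 (0.133), HCT116 oxaliplatin replicate 1 (0.0666), HCT116 oxpl-R control replicate 2 (0.0729) or 3 (0.0585), or HCT116 oxpl-R oxaliplatin replicate 3 (0.0764). The interaction was -0.82 ± 0.272 for BID (adjusted p = 0.104), -0.63 ± 0.248 for BAX (0.195) and 0.61 ± 0.277 for MCL1 (0.271). BID passed under DESeq2 (0.0196) and filterByExpr (0.0494), and BAX under DESeq2 (0.0385) and limma (0.0364 and 0.0413). Without both libraries that stood apart, BBC3 stood at -1.39 (adjusted p = 0.00125), BID at -1.17 (0.00124), BAD at -1.16 (0.00251) and BAX at -0.86 (0.0149), and 4 members passed. Without HCT116 oxaliplatin replicate 3 alone, BID stood at -1.09 (adjusted p = 0.00577).

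E1A, which binds the retinoblastoma protein and frees E2F factors, was compared with control in each line to ask what the transgene does by itself. No member passed in either line, where the share of genes that passed was 0.432% in HCT116 cells and was 0.226% in HCT116 oxpl-R cells. At an unadjusted p below 0.05 edgeR gave 1 member in HCT116 cells (BCL2) and 2 members in HCT116 oxpl-R cells (BCL2 and BCL2L1), and DESeq2 and limma called 0 members in both. BCL2 stood at 191, 188 and 123 normalized counts in the HCT116 E1A samples and at 169, 168 and 123 in the HCT116 oxpl-R E1A samples. Replicate 3 of each set lay closest to the controls (log2FC 0.58 ± 0.260 and 0.71 ± 0.262, adjusted p = 0.701 and 0.637). BCL2L1 stood at 11287, 9801 and 7707 in the HCT116 oxpl-R E1A samples, all below the controls at 15044, 14422 and 13074 (log2FC -0.56 ± 0.172, adjusted p = 0.345). In HCT116 cells its log2FC was -0.17 ± 0.172. None of the 10 members passed in the interaction of line and E1A, where 0.0103% of the genes passed, and edgeR gave 0 members at an unadjusted p below 0.05, as DESeq2 and limma gave 0 calls.

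E1A + oxaliplatin was compared with oxaliplatin to ask what E1A adds under the drug. In HCT116 oxpl-R cells BCL2 was the member that rose, 1 of 10, where 1.39% of the genes and 2.41% of the 11097 passed. It stood at 139, 116 and 104 normalized counts against 52, 41 and 53 with oxaliplatin alone. The groups did not overlap (log2FC 1.29 ± 0.272, adjusted p = 0.00635), and the adjusted p was 0.0586 without oxaliplatin replicate 2 and 0.0769 with only the groups compared in the fit, and 0.0696 and 0.0650 under limma with the pseudocounts. BCL2L1 moved the other way, at 12063, 12063 and 10705 against 21209, 16789 and 16329, also without overlap (log2FC -0.64 ± 0.172, adjusted p = 0.0556). Its adjusted p was 0.0403 without oxaliplatin replicate 3 and 0.0104 without both HCT116 libraries that stood apart, and it was between 0.00245 and 0.0350 under DESeq2, filterByExpr, the replicate block and limma. It was 0.281 with only the groups compared (0.189 with the block), 0.150 under total count scaling, and up to 0.226 with 1 sample left out, without oxaliplatin replicate 1.

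In HCT116 cells no member passed in that comparison, where 0.0874% of the genes passed. At an unadjusted p below 0.05 edgeR gave 2 members, BCL2 and BCL2L1, and DESeq2 and limma called 0. BCL2 stood at 75, 135 and 120 against 73, 62 and 74 (log2FC 0.66 ± 0.266), and BCL2L1 at 12196, 9398 and 8828 against 14119, 12564 and 13047 (log2FC -0.39 ± 0.172). In the E1A + oxaliplatin set, replicate 1, the library with the low Ad5-E1A count, lay nearest to the oxaliplatin samples for both genes. That library also stood apart in its trend with transcript length, and the part of either in these values was not tested. No member passed in the interaction of E1A and oxaliplatin in either line, where the share of genes that passed was 0.0103% in HCT116 cells and was 0.036% in HCT116 oxpl-R cells, and edgeR gave 0 members at an unadjusted p below 0.05, as DESeq2 and limma gave 0 calls.

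**Figure D4:**
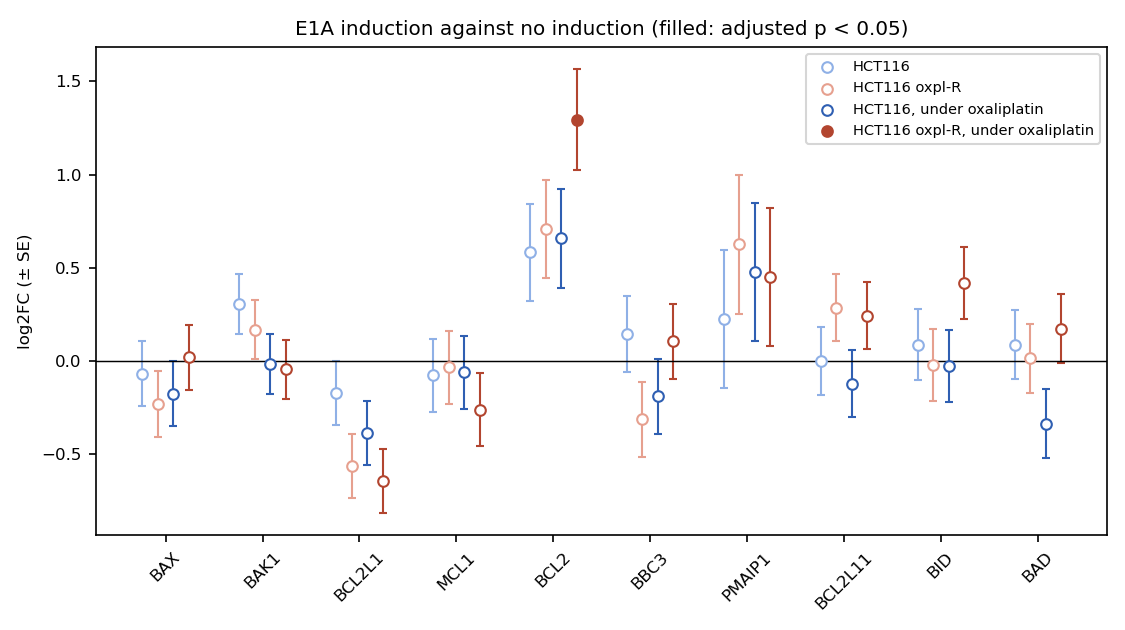
log2FC (± SE) of the 10 genes for induction of E1A, without oxaliplatin (E1A against control, pale) and under oxaliplatin (E1A + oxaliplatin against oxaliplatin, dark), in HCT116 cells (blue) and HCT116 oxpl-R cells (red), with filled points for an adjusted p below 0.05. The filled point is BCL2 in HCT116 oxpl-R cells under oxaliplatin at 1.29, and BCL2L1 lay below 0 in all 4 comparisons.

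E1A + oxaliplatin was also compared with control, using the control samples that the comparisons above share. In HCT116 cells 5 of the 10 members rose and 1 fell, where 14.8% of the genes and 25.3% of the 11097 passed. BBC3 (log2FC 2.05 ± 0.209, adjusted p = 6.58e-08) and BAX (1.51 ± 0.179, 9.84e-07) led, followed by BAD at 0.72, BID at 0.69 and BAK1 at 0.55, and MCL1 stood at -0.61 (adjusted p = 0.0327). BCL2L1 was at 0.34 (adjusted p = 0.199) and passed under DESeq2 (0.0378) and filterByExpr (0.0468). BAK1 was lost without control replicate 1 (adjusted p = 0.0924) or 2 (0.0981) or E1A + oxaliplatin replicate 1 (0.0678) or both libraries that stood apart (0.0511), BID without control replicate 1 (0.0546) or 2 (0.0770), and BAD without control replicate 2 (0.0654). MCL1 was lost without control replicate 1 (0.0725), 2 (0.108) or 3 (0.0769) or E1A + oxaliplatin replicate 1 (0.113) or 2 (0.118) or both libraries that stood apart (0.0861), and under RLE (0.0542), total count scaling (0.0691) and filterByExpr (0.0532). Of the 10 members, 2 rose in HCT116 oxpl-R cells, where 3.78% of the genes and 6.46% of the 11097 passed. These were BBC3 (log2FC 1.13 ± 0.203, adjusted p = 0.000533) and BAX (1.08 ± 0.176, 0.000154).

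PMAIP1 and BAK1 lay close to the threshold in HCT116 oxpl-R cells given both agents. PMAIP1 stood at 5391, 4752 and 4460 normalized counts, above every control sample (log2FC 1.19 ± 0.375, adjusted p = 0.0729). With 1 sample left out at a time its log2FC lay between 1.04 and 1.45. The adjusted p then lay between 0.0479, without control replicate 2, and 0.240. BAK1 stood at 2055, 1791 and 2148 (log2FC 0.53 ± 0.159, adjusted p = 0.0551). The labels give no pairing, but in this comparison the deviations of samples with the same replicate number correlated above the cutoff used (0.294, 0.189 and 0.615). With the replicate number as a block and only the groups compared, 4 members passed, with PMAIP1 at 1.21 (adjusted p = 4.21e-07) and BAK1 at 0.51 (0.00616) added. With the block in the fit of all samples PMAIP1 was at 1.23 (adjusted p = 0.0606). With both HCT116 libraries that stood apart left out, 4 members passed too, at adjusted p = 8.65e-05 for PMAIP1 and 0.0231 for BAK1. That run likewise changed no sample of this comparison and adds no evidence on this line. Removal of the trend with transcript length put PMAIP1 at 1.20 (adjusted p = 0.0247). PMAIP1 passed too under total count scaling (0.0270) and with only the groups compared (0.00359), and BAK1 under DESeq2 (0.00801), filterByExpr (0.0177), the block in the fit of all samples (0.0446) and limma (0.0282 and 0.0353).

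The lines were compared under each treatment to ask how the family differs between resistant and parental cells. In the control samples 3 of the 10 members were higher in HCT116 oxpl-R than in HCT116 cells and 2 were lower, where 14.1% of the genes and 23.6% of the 11097 passed. BAX had the largest difference, at 3537, 4236 and 3852 against 1073, 965 and 1229 normalized counts (log2FC 1.83 ± 0.181, adjusted p = 5.39e-09). The values of untreated HCT116 oxpl-R samples overlapped those of HCT116 samples under oxaliplatin, at 3820, 3702 and 2958, a difference that was not tested. BCL2L1 was also higher, at 15044, 14422 and 13074 against 7412, 7563 and 9019 (log2FC 0.83 ± 0.173, adjusted p = 0.000958), and so was BBC3, at 1087, 1240 and 1102 against 677, 678 and 678 (0.75 ± 0.203, 0.0101). None of the 3 genes overlapped between the lines, and these calls held in every alternative.

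BCL2L11 and BAK1 were lower in untreated HCT116 oxpl-R cells. BCL2L11 stood at 508, 473 and 454 against 730, 866 and 831 (log2FC -0.76 ± 0.182, adjusted p = 0.00389), and its call held in every alternative. BAK1 stood at 1275, 1464 and 1403 against 1817, 1822 and 2200, without overlap (log2FC -0.50 ± 0.160, adjusted p = 0.0333), and its call was lost without any of the 6 libraries, at adjusted p between 0.0541 and 0.172, and under RLE (0.0638) and total count scaling (0.0947). BID was at -0.40 ± 0.193 (adjusted p = 0.186, and 0.0283 with only the groups compared) and BAD at 0.23 ± 0.185 (0.493).

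Under oxaliplatin 2 members were higher in HCT116 oxpl-R than in HCT116 cells and 4 were lower, where 25.6% of the genes and 43% of the 11097 passed. BAX stayed higher (log2FC 1.20 ± 0.177, adjusted p = 3.76e-06), and 3 BH3-only genes were lower. BID stood at 2396, 3421 and 2820 against 8719, 6992 and 4449 (log2FC -1.22 ± 0.195, adjusted p = 1.28e-05), BCL2L11 at 452, 496 and 431 against 797, 843 and 1056 (-0.97 ± 0.183, 0.000132), and BAD at 2889, 2780 and 1818 against 4832, 3888 and 3778 (-0.74 ± 0.185, 0.00277). None of these overlapped between the lines, and the calls held in every alternative. The median log2FC of the 5 BH3-only genes was -0.739, against 0.085 over the 11097 genes, and PMAIP1 lay on the other side at 0.30 (adjusted p = 0.657).

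MCL1 and BAK1 gave calls under oxaliplatin that were less firm. MCL1 stood at 6303, 7612 and 5827 against 4084, 4516 and 4454 (log2FC 0.60 ± 0.197, adjusted p = 0.0229), and the adjusted p was 0.127 and 0.0596 without HCT116 oxaliplatin replicate 1 and 2 and 0.151 without HCT116 oxpl-R oxaliplatin replicate 2. BAK1 stood at 2125, 2102 and 1949 against 3112, 2592 and 2928 (log2FC -0.48 ± 0.159, adjusted p = 0.0228), and at 0.0544 without HCT116 oxaliplatin replicate 1. Replicate numbers passed the same cutoff for these samples. With the replicate number as a block and only the groups compared, the adjusted p was 0.163 for MCL1 and 0.0923 for BAK1. With only the groups compared and no block it was 0.112 for MCL1 and 0.0652 for BAK1, and under total count scaling it was 0.120 for BAK1. BCL2L1 was at 0.45 ± 0.172 (adjusted p = 0.0519). With the block it was at 0.44 (0.0312) in the fit of all samples and at 0.36 (0.401) with only the groups compared, and it passed under total count scaling (0.0295), DESeq2 (0.0358), filterByExpr (0.0363) and limma (0.0288 and 0.0333). BBC3, higher in HCT116 oxpl-R cells without treatment, lay below HCT116 in all samples under oxaliplatin (log2FC -0.46 ± 0.201, adjusted p = 0.1003). Its adjusted p was 0.0430 without HCT116 oxpl-R oxaliplatin replicate 1, 0.0266 without both libraries that stood apart, and between 0.0102 and 0.0467 under DESeq2, filterByExpr and limma. With the block it was 0.0842 in the fit of all samples and 0.0938 with only the groups compared. With 1 sample left out at a time the adjusted p of BBC3 reached 0.336, and its log2FC lay between -0.61 and -0.31.

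With E1A 1 member was higher in HCT116 oxpl-R than in HCT116 cells and 1 was lower, where 14.4% of the genes and 24.4% of the 11097 passed. BAX stood at 3534, 3208 and 3177 against 949, 1014 and 1156 (log2FC 1.67 ± 0.180, adjusted p = 4.74e-08) and BAK1 at 1747, 1547 and 1362 against 2469, 2435 and 2313 (-0.63 ± 0.160, 0.00621). BAK1 was lost without HCT116 oxpl-R E1A replicate 3 (adjusted p = 0.0551). BCL2L1 was at 0.43 ± 0.172 (adjusted p = 0.0946), BID at -0.51 ± 0.193 (0.0745) and BCL2L11 at -0.47 ± 0.182 (0.0809). BCL2L1 passed without that same library (0.0478), under DESeq2 (0.0119), filterByExpr (0.0192) and limma (0.0232 and 0.0273), with only the groups compared (0.0298, and 0.0456 with the block), and without both libraries that stood apart (0.00991). BCL2L11 passed under DESeq2 (0.0219). PMAIP1, at 3450, 3753 and 2660 against 2128, 2066 and 2750 normalized counts (log2FC 0.51 ± 0.371, adjusted p = 0.437), passed with only the groups compared (0.61, 0.0267) and without both libraries that stood apart (0.60, 0.0236). BBC3 passed under limma (0.0277 and 0.0313).

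With E1A + oxaliplatin 1 member was higher in HCT116 oxpl-R than in HCT116 cells and 3 were lower, where 19.3% of the genes and 32.3% of the 11097 passed. BAX stood at 7596, 7566 and 9347 against 3460, 3102 and 2717 (log2FC 1.40 ± 0.178, adjusted p = 7.22e-07), and BID at 3403, 3793 and 4348 against 5879, 7580 and 6354 (-0.78 ± 0.193, 0.00369). BCL2L11 was at -0.60 ± 0.182 (adjusted p = 0.0169) and BAK1 at -0.51 ± 0.159 (0.0209). Under total count scaling the adjusted p was 0.0766 for BCL2L11 and 0.0726 for BAK1, and with only the groups compared it was 0.0757 and 0.0894 (0.0648 and 0.103 with the block). BAK1 was also lost without HCT116 E1A + oxaliplatin replicate 1 (adjusted p = 0.130) or HCT116 oxpl-R E1A + oxaliplatin replicate 1 (0.0519) or 2 (0.127) or both libraries that stood apart (0.109), and BCL2L1 was at 0.20 ± 0.172. Thus BAX was higher and BAK1 lower in HCT116 oxpl-R cells under all 4 treatments, with the limits given for BAK1.

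**Figure D5:**
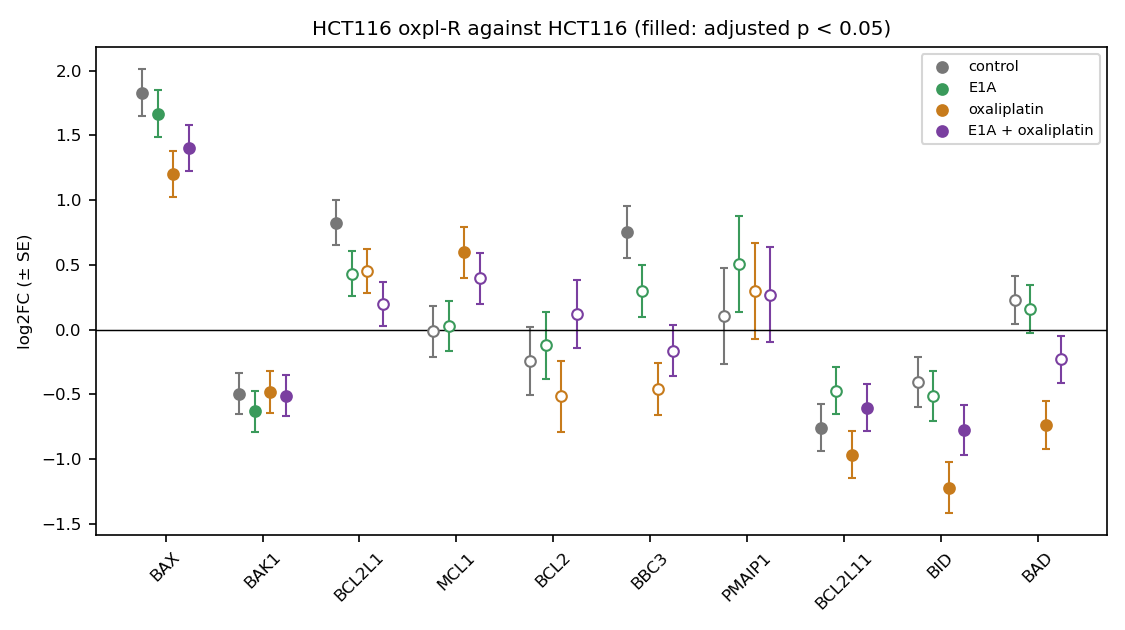
log2FC (± SE) of the 10 genes for HCT116 oxpl-R against HCT116 cells under control, E1A, oxaliplatin and E1A + oxaliplatin, with filled points for an adjusted p below 0.05. BAX lay between 1.20 and 1.83 and BAK1 between -0.63 and -0.48 under the 4 treatments, and BID reached -1.22 under oxaliplatin.

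Of 13 further genes of the BCL2 family, 3 rose and 1 fell with oxaliplatin in HCT116 cells, where 17.4% of all genes and 29.8% of the 11097 passed. BIK, a BH3-only protein of the endoplasmic reticulum, had a log2FC of 0.91 ± 0.204 (adjusted p = 0.00235), and BCL2L15 of 1.65 ± 0.387 (0.00332), a value that reached 3.10 under limma on the second table. BMF, which is released from the cytoskeleton, had 0.98 ± 0.314 (0.0291), and BNIP3L, a receptor for mitophagy, had -0.74 ± 0.195 (0.00817). BMF was lost without control replicate 1 (adjusted p = 0.0777) or 2 (0.138) or oxaliplatin replicate 3 (0.127) or both libraries that stood apart (0.0675), and under limma (0.103 and 0.0968), and BNIP3L without control replicate 1 (0.0502) or oxaliplatin replicate 1 (0.108). BCL2L12 was the gene of the 13 that passed with oxaliplatin in HCT116 oxpl-R cells (log2FC -1.17 ± 0.202, adjusted p = 0.000175), where 6.11% of all genes and 10.5% of the 11097 passed.

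Between the untreated lines 2 of the 13 were higher in HCT116 oxpl-R than in HCT116 cells and 3 were lower, where 14.1% of all genes and 23.6% of the 11097 passed. BCL2L15 had counts of 26, 27 and 10 in HCT116 cells and of 840, 1189 and 931 in HCT116 oxpl-R cells (log2FC 5.65 ± 0.412, adjusted p = 8.86e-12, and up to 6.87 under limma). BMF was lower, with counts of 39, 29 and 32 against 116, 92 and 119 (log2FC -1.59 ± 0.337, adjusted p = 0.00106), and so was BOK, an effector that can act without BAX and BAK1 (-0.999 ± 0.205, 0.000767).

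Among 14 genes that act after the opening of mitochondria, CASP9, the caspase of the apoptosome, was the gene that passed with E1A in HCT116 oxpl-R cells. There 0.226% of all genes and 0.397% of the 11097 passed. CASP9 averaged 513 ± 45.2 normalized counts in HCT116 control samples and 832 ± 39.1 with E1A, and 567 ± 23.4 and 1082 ± 102 in HCT116 oxpl-R cells (SD, n = 3). The log2FC was 0.93 ± 0.186 in HCT116 oxpl-R cells (adjusted p = 0.0169) and 0.70 ± 0.186 in HCT116 cells (0.108). Under oxaliplatin the log2FC of E1A was 1.01 ± 0.186 in HCT116 oxpl-R cells (adjusted p = 0.00149) and 0.99 ± 0.186 in HCT116 cells (0.0178), and its counts with E1A did not overlap those without in any of the 4 comparisons. In HCT116 oxpl-R cells the call without the drug was lost without control replicate 1 (adjusted p = 0.0809), 2 (0.126) or 3 (0.147) or E1A replicate 1 (0.123). In HCT116 cells that under oxaliplatin was lost without oxaliplatin replicate 2 (0.0547) or 3 (0.131) or E1A + oxaliplatin replicate 2 (0.116) or 3 (0.0989) or both libraries that stood apart (0.0754). With only the groups compared, both of these calls were lost (adjusted p = 0.136 without the drug in HCT116 oxpl-R cells and 0.99997 under oxaliplatin in HCT116 cells). E1A against control in HCT116 cells passed with only the groups compared (0.00193), under DESeq2 (0.00509) and filterByExpr (0.0447), and without both libraries (0.0367).

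With oxaliplatin 2 of the 14 rose and 1 fell in HCT116 cells, where 17.4% of all genes and 29.8% of the 11097 passed. ENDOG, a mitochondrial nuclease, had a log2FC of 0.98 ± 0.212 (adjusted p = 0.00169). In HCT116 oxpl-R cells edgeR called 0 of the 14, where 6.11% of all genes and 10.5% of the 11097 passed, and 3 (APAF1, CASP9 and DIABLO) had an unadjusted p below 0.05. PARP1, a DNA repair enzyme cut by caspases, was the gene of the 14 that differed between the untreated lines (log2FC -0.88 ± 0.210, adjusted p = 0.00373), where 14.1% of all genes and 23.6% of the 11097 passed. Under oxaliplatin 2 of the 14 were higher in HCT116 oxpl-R than in HCT116 cells and 3 were lower, where 25.6% of all genes and 43% of the 11097 passed. APAF1, the scaffold of the apoptosome, was higher (log2FC 1.60 ± 0.267, adjusted p = 2.57e-05), and so was DIABLO, which frees caspases from their inhibitors (0.57, 0.0134). ENDOG (-1.18, 7.58e-05), PARP1 (-0.90, 0.00145) and CASP2, an initiator caspase (-0.58, 0.00768), were lower.

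Of 6 inhibitors of caspases, BIRC5 (survivin), which also serves in mitosis, was the gene that passed with oxaliplatin, and it did so in HCT116 oxpl-R cells. There 6.11% of all genes and 10.5% of the 11097 passed. In HCT116 cells, where 17.4% of all genes and 29.8% of the 11097 passed, edgeR called 0 of the 6 and 0 had an unadjusted p below 0.05. BIRC5 averaged 10695 ± 1000 normalized counts in the HCT116 oxpl-R control samples and 2541 ± 561 under oxaliplatin (log2FC -2.07 ± 0.202, adjusted p = 1.01e-08), against 12321 ± 1180 and 13014 ± 2540 in HCT116 cells (SD, n = 3). E1A + oxaliplatin put it at 5244 ± 1510 in HCT116 oxpl-R cells (log2FC 1.05 ± 0.196 against oxaliplatin, adjusted p = 0.00189), and without E1A + oxaliplatin replicate 3 the adjusted p was 0.0604. BCL2L12 rose in that comparison too (log2FC 0.98 ± 0.201, adjusted p = 0.00504), and it was lost without the same library (0.152) and with only the groups compared (0.0813, and 0.0668 with the block). The transcript of the cell cycle gene E2F1 was also lowest under oxaliplatin in that line, at 2803 ± 246, 639 ± 68.1 and 2941 ± 517 in control, oxaliplatin and E1A + oxaliplatin samples. The part of the cell cycle in the values of BIRC5 was not tested.

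BAX, BBC3 and BCL2L1 had the widest range of group means among the 10 genes, at 2.94, 2.19 and 1.33 on log2(CPM + 1). The third place rests on the pseudocount, since BCL2 stood at 1.32 on that scale, and at 1.76, above BCL2L1, on log2(CPM), an alternative added after the data were seen. Over the 24 samples the genes most like BAX were GDF15 (Pearson r = 0.978), SEC14L2 (0.975) and FSTL3 (0.969). Those most like BBC3 were FAM98C (0.980), NUDT22 (0.962) and RNF215 (0.955), and those most like BCL2L1 were FOSL2 (0.950), GPRC5A (0.933) and LMNA (0.930). These were the highest of 9507 genes with at least 50 counts on average. The points share libraries, lines and treatments, and the values are a description only.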

How the data were processed

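Reads of 24 samples were trimmed with Trimmomatic and quantified on GRCh38 transcripts with Salmon 1.6.0, per the submitters' notes, with tximport used to sum transcripts to genes. A table of estimated counts, not normalized, was deposited by the authors (33113 genes up to SETP6), of which 15.9% to 30.4% per sample were not whole numbers, and a second table (37967 genes, up to TSC22D3) named TPM, which was read from its sums as length-scaled estimated counts, and not as the TPM that was planned for. Counts were rounded here. Genes that would come after the ends of these tables were not analysed, so shares of all genes are shares of the genes tested.

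All 24 samples were fitted together in R 4.3.3 with edgeR 4.0.16 (TMM, quasi-likelihood test). The 19452 genes that were counted in at least 1 sample entered. Alternatives were RLE and total count scaling, DESeq2 1.42.0, filterByExpr, the groups compared alone, the replicate block, limma 3.58.1 on the log2 values of the second table with a pseudocount of 1 or 0.1, |log2FC| above 1, each sample of the groups compared left out in turn and, added after the data were seen, both odd libraries left out, the length trend removed within groups, and the block with the groups compared alone. Replicate numbers were taken to pair samples where all 3 correlations of deviations were above 0.1, a rule on these data and not a label. This held for E1A + oxaliplatin against control in HCT116 oxpl-R cells (0.294, 0.189 and 0.615) and for the lines under oxaliplatin (0.141, 0.188 and 0.253). For the lines in control samples the correlations were -0.0455, -0.213 and -0.316. The fit was tested on simulated data with 200 genes changed in HCT116 oxaliplatin samples. It recovered 99% of those changed 2-fold and 81% of those changed 1.5-fold, with 7 false calls among 18842 genes. The simulation held no differences between the lines and no libraries that stood apart, so it does not cover these features of the data.

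The members and lists were chosen with earlier results of these data known. Text names the 10 members, checks of treatment, up to 4 genes with the smallest adjusted p per list and comparison (in part), and for the 3 members of widest range the 3 genes of highest correlation. Positions and MANE Select lengths are from GENCODE 44, promoters from RefSeq. Plots were drawn in Python 3.11.15 with matplotlib 3.10.9. Counting strand was not given in the sources used here, so overlapping and antisense genes are uncertain. A list of ubiquitin ligases and kinases is not reported here.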

Additional observations from a re-analysis of the deposited data

Results flagged for a closer look

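The lines differed in their response to oxaliplatin for 6 genes of the lists. The lists were the 10 members, 13 further BCL2 family genes, 14 genes after the mitochondrion and 6 caspase inhibitors. Calls were by edgeR's interaction of line and oxaliplatin, with adjusted p below 0.05 over all genes. In that interaction 2.78% of the 19452 genes tested and 4.79% of the 11097 passed. The members among the 6 were BBC3 at -1.21 and BAD at -0.97 on the log2 scale. BIRC5 stood at -2.15 (adjusted p = 1.43e-05), BCL2L12 at -1.49 (0.00241), ENDOG at -1.39 (0.00761) and APAF1 at 1.37 (0.0370). The call of APAF1 was lost without any of 10 of the 12 libraries, at adjusted p between 0.0684 and 0.166, and under total count scaling (0.0629) and with only the groups compared (0.0815, and 0.0752 with the block). Of the genes that served as checks of treatment, MDM2 passed too, at 1.62 (adjusted p = 0.00111), and so did E2F1 at -2.60 (1.44e-07) and MCM5 at -1.73 (4.15e-05). Without both HCT116 libraries that stood apart, the values were -2.43, -1.74, -1.64 and 1.79 for BIRC5, BCL2L12, ENDOG and APAF1.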

How the results depend on the processing

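Of 39 calls of members in the 16 comparisons, 21 held with each sample of the groups compared left out in turn and under each other alternative except the fold threshold, and 0 turned direction. Counts of members called are given here where they moved by more than 1.5 times. For oxaliplatin the count was 7 in HCT116 and 4 in HCT116 oxpl-R cells, and it was 3 and 2 with |log2FC| above 1, and 2 in HCT116 oxpl-R cells with only the groups compared. For E1A + oxaliplatin against control it was 6 in HCT116 cells and 2 with |log2FC| above 1. In HCT116 oxpl-R cells it was 2, and 4 without both libraries that stood apart or with the replicate block and only the groups compared. For E1A + oxaliplatin against oxaliplatin in HCT116 oxpl-R cells it was 1, and 2 under DESeq2, filterByExpr, the replicate block and without both libraries, and 0 with only the groups compared. Between the lines it was 5, 6, 2 and 4 in control, oxaliplatin, E1A and E1A + oxaliplatin samples, and 1, 2, 1 and 1 with |log2FC| above 1. With E1A it was 4 under DESeq2, with only the groups compared, under limma with either pseudocount and without both libraries. With E1A + oxaliplatin it was 2 under total count scaling and with only the groups compared, with or without the replicate block. For the interaction of line and oxaliplatin it was 2, and 1 with |log2FC| above 1 or with only the groups compared, with or without the block, 4 under DESeq2 and without both libraries, and 0 under total count scaling. With 1 sample of the groups compared left out at a time the count ranged from 4 to 7 for oxaliplatin in HCT116 cells (from 2 to 4 in HCT116 oxpl-R), from 2 to 6 for E1A + oxaliplatin against control in HCT116 cells, from 0 to 2 for E1A + oxaliplatin against oxaliplatin in HCT116 oxpl-R cells, and from 1 to 3 for the interaction. The values that changed sign were not calls, and with 1 sample left out they ranged in HCT116 oxpl-R cells given oxaliplatin from -0.10 to 0.17 for MCL1, from -0.22 to 0.0139 for BID and from -0.0379 to 0.26 for BAD. Total count scaling moved the median log2FC of genes with at least 10 counts on average to -0.136 for oxaliplatin in HCT116 cells, 0.175 and 0.104 between the lines under oxaliplatin and E1A + oxaliplatin, and 0.142 for the interaction. The cause of these changes was not tested, other than that the fold threshold is stricter by construction. Replicate numbers did not meet the rule for pairing in the other 10 comparisons of groups. There the block with only the groups compared ended calls of BAK1, BID, MCL1 and BCL2L11 and of BAD in the interaction, and added PMAIP1 for oxaliplatin in HCT116 oxpl-R cells (adjusted p = 0.00532) and BCL2L1 between the lines with E1A (0.0456). BCL2 had 41 to 191 normalized counts.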
